A study of Mus musculus with 7 samples.

Results

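Cerebral cortex excitatory neurons are represented here by 9 marker genes, Emx1, Eomes, Neurod1, Neurod6, Tbr1, Fezf2, Rorb, Cux2 and Slc17a7, out of 23317 measured genes and other features. The genes were picked by symbol, as known markers of these cells, and each was read from its brightest probe (highest average of the 7 arrays). They were measured by 13 probes, of which 11 were well above the scanner software's background on at least 3 arrays, and 9 of 9 genes passed that filter. The samples were brains of male C57BL/6N mice, 1 sample to an array. Pla2g2e -/- brains were taken on day 3 after 60 min of transient middle cerebral artery occlusion (3 arrays, called KO here), wild-type brains on day 3 after the same occlusion (3 arrays, called WT), and a single wild-type brain was labelled sham (1 array). Pla2g2e encodes a secreted phospholipase A2, and the labels give no promoter, tissue restriction or deleted exons for the knockout, and no brain region, hemisphere or age. They do not say whether replicates are separate animals or pools, so the p-values below measure only the spread between these samples. What the sham operation left out is likewise not stated there.

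Excitatory neurons of the cortex release glutamate and form its long-range outputs. They arise from progenitors of the dorsal telencephalon that express Emx1, pass through an intermediate stage marked by Eomes, and switch on the transcription factors Neurod1, Neurod6 and Tbr1 as they become neurons. In the adult cortex Fezf2 marks deep-layer neurons that project out of the cortex, Rorb marks layer 4 and Cux2 the upper layers. Slc17a7 encodes VGLUT1, the transporter that loads glutamate into synaptic vesicles of most cortical excitatory neurons. The middle cerebral artery supplies much of the lateral cortex and the striatum, and both can lie in the infarct after its occlusion.

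The arrays had 31177 to 34029 of 43020 non-control spots well above background (72.5% to 79.1%), and none was saturated. The array labelled WT replicate 1 stood apart: its correlation with the other 6 arrays over all features was 0.857 to 0.916, against 0.968 to 0.991 for the 15 pairs among the others. Summed over 9 microglia and phagocyte genes, it read 28.6 times the 75th percentile, against 161 to 203 on the other arrays, the array labelled sham included at 186. By these genes both arrays go against their labels. Whether these 2 labels were exchanged was not tested, and every sham comparison, and the size of every difference between KO and WT, takes them as given. Differences between KO and WT are therefore also given without WT replicate 1 or without both arrays. Pla2g2e read -4.44, -5.83 and -4.97 on the KO arrays, against -6.89, -3.68 and -3.36 on the WT arrays and -4.69 on the sham array (log2 signal minus the log2 of the array's 75th percentile, the scale of every level below), so the groups overlapped through WT replicate 1 alone. The difference was -0.43 ± 1.02 log2 (SE, adjusted p = 0.889, limma), and without WT replicate 1, where both WT arrays lay above all KO arrays, -1.56 ± 0.44 (adjusted p = 1, limma). Whether its probe lies in the deleted part is not stated. The KO arrays sat on a slide of their own and all wild-type arrays, sham included, on another, so an effect of the slide and one of genotype cannot be told apart.

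With all arrays, the means of Tbr1, Neurod6 and Slc17a7 were over 2 log2 lower in KO than in WT. So were those of Emx1 and Neurod1, whose stretches are not shown. Without WT replicate 1 the differences of Tbr1, Neurod6 and Slc17a7 were -1.23, -0.74 and -1.50. Eomes read higher on the sham array than on any day 3 array. The stretches upstream of Tbr1, Neurod6, Slc17a7 and Eomes are shown because these 4 genes carry patterns described below. Each is the 250 bases before the RefSeq start on GRCm38.p6, 5′ to 3′ on the strand of the gene, with each E-box (CANNTG, the motif bound by NeuroD and other basic helix-loop-helix factors, identical on both strands) in capitals. Tbr1 lies at chr2:61804203-61804452 on the plus strand, Neurod6 at chr6:55681264-55681513 on the minus strand, Slc17a7 at chr7:45163671-45163920 on the plus strand and Eomes at chr9:118477939-118478188 on the plus strand.
Tbr1: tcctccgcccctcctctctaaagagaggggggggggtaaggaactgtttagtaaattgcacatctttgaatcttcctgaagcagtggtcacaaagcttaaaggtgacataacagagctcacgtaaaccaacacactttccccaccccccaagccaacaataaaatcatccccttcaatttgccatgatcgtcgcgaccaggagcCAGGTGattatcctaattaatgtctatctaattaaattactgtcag
Neurod6: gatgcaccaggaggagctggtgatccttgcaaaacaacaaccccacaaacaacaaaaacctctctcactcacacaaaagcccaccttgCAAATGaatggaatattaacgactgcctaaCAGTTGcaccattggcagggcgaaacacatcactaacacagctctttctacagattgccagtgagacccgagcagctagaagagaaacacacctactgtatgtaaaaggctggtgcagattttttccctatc
Slc17a7: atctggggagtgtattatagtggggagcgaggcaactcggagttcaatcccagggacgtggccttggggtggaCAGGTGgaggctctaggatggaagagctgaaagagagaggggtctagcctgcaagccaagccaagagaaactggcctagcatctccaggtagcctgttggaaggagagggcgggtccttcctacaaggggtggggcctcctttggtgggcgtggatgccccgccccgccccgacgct
Eomes: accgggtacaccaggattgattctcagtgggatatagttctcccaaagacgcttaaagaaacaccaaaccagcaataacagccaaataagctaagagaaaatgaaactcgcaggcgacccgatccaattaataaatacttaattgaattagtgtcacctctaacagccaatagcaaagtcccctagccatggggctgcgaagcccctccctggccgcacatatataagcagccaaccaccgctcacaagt

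Neurod6 holds a pair of E-boxes there, Tbr1 and Slc17a7 hold 1 each and Eomes none. RefSeq gives 11 windows of 300 bases (250 before to 50 after the start) for the 9 genes, because Cux2 and Rorb have a pair each. An E-box was found in 9 of the 11 windows (81.8%), against 72.3% of all 32851 windows. The narrower E-box CAGATG, searched on both strands, was in 1 of 11 windows, against 17.2% of all, and CAGCTG in 0 of 11, against 16.3%. The T-box element AGGTGTGA, searched on both strands, was in 0 of 11, against 1.28% of all. The member windows had a median GC content of 61.3%, against 52.7% for all windows. These matches describe letters only, and no measurement of binding was made.

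The probes decide what is being read for each gene. The 3 probes printed here were chosen because, by background knowledge of the proteins, they fall in coding sequence. Their place in the transcripts was not looked up in an annotation. They are the dimmer of the Tbr1 probes, the only Fezf2 probe and the dimmer of the Neurod1 probes. Of the 3, only the Fezf2 probe gives levels quoted for the gene below, and the Tbr1 and Neurod1 probes serve as second readings. The Neurod1 probe printed was well above background on only 2 arrays and did not pass the filter. Positions are those of the array design on mm9, and the letters are in lower case throughout because no base is singled out. The dimmer Tbr1 probe lies at chr2:61644054-61644113 (plus strand), the Fezf2 probe at chr14:13175057-13175116 (minus strand) and the dimmer Neurod1 probe at chr2:79294309-79294368 (minus strand). The brighter probes lie at chr2:61652093-61652152 for Tbr1 and chr2:79293621-79293680 for Neurod1.
Tbr1: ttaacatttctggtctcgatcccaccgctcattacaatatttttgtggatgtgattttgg
Fezf2: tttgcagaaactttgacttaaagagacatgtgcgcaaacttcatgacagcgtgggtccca
Neurod1: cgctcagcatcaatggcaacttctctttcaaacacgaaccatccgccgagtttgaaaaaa

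Between genotypes on day 3, the mean of each of the 9 genes was lower in KO than in WT brains, against 53.1% of all features with a mean lower in KO, and none passed the test. Differences ran from -2.74 log2 for Slc17a7 to -0.21 for Eomes, with a median of -2.27, against a median of -0.03 over all features. With Neurod1 set to its bound, since 0 of 3 KO arrays measured it well above background, that median was -1.25. Over all features 0% were called at an adjusted p under 0.05, and 0.845% had an unadjusted p under 0.05, as did 0 of the 9 genes. In 6 of 9 genes the fitted KO mean was at least 2-fold lower (5 of 9 with Neurod1 at its bound), against 4.73% of all features. In 0 of 9 were all KO arrays below all WT arrays, against 2.65% of all features. With 3 arrays against 3, an exact permutation test cannot go below p = 0.1, and none was run on single genes. In RNA of bulk tissue, fewer cells of a type and less RNA per cell cannot be told apart.

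**Figure D1:**
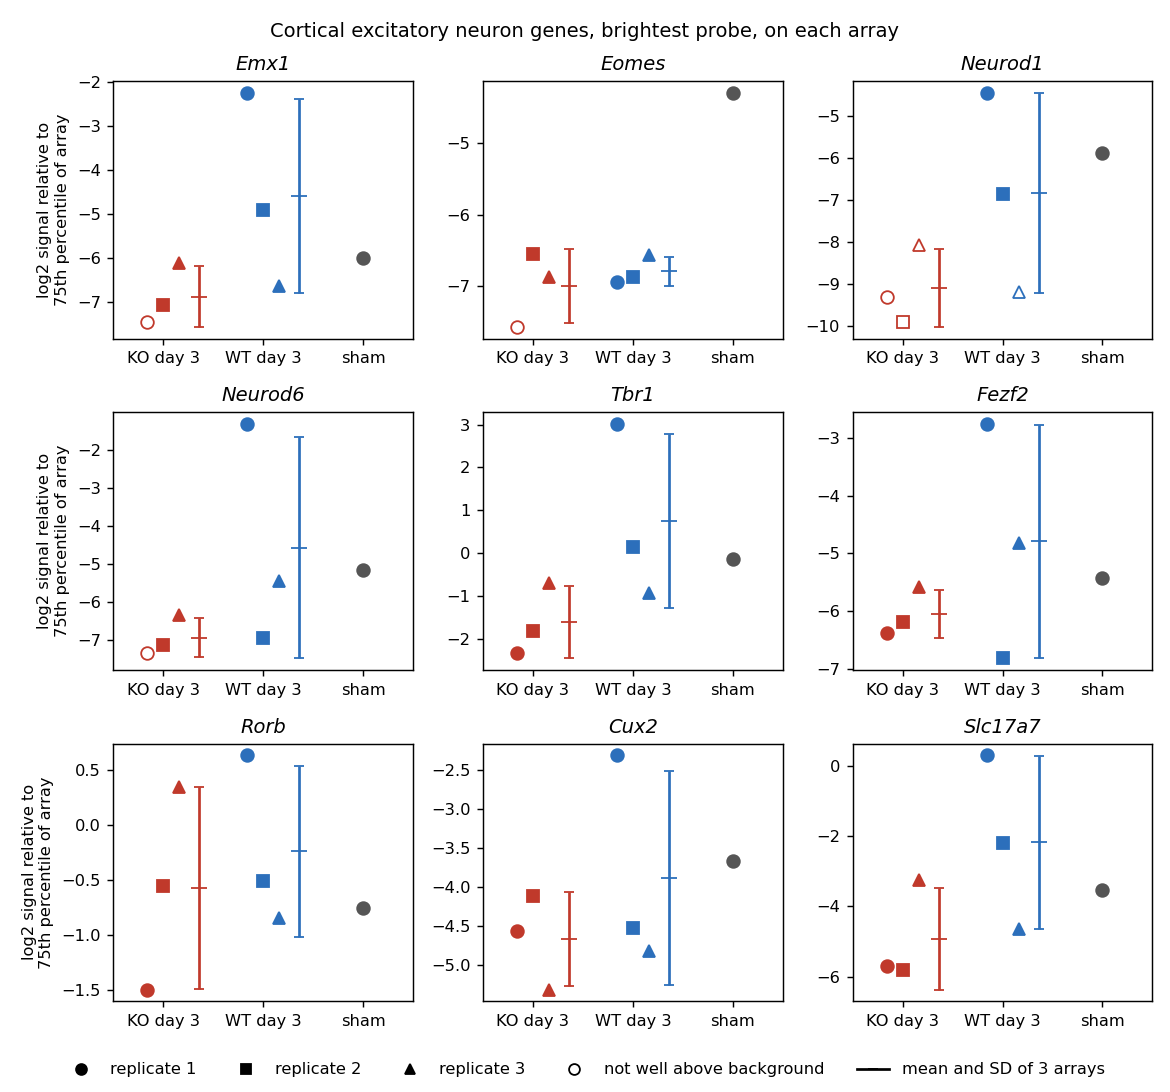
Level of each of the 9 genes on each array (y axis, log2 signal relative to the array's 75th percentile, with a scale of its own in each panel), by group, with the mean and SD of the 3 KO and the 3 WT arrays at the right of their points. Open points were not well above background; WT replicate 1 (circle) is the highest point in every panel except Eomes, where the sham array is.

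The size of these differences rested in large part on WT replicate 1. It read above each of the other 6 arrays in 8 of 9 genes, all but Eomes, against 43.9% of all features. Without it, in a fit of the remaining 6 arrays, the median difference between KO and WT was -0.74, and 7 of 9 genes remained lower in KO (all but Cux2 and Rorb), against 49.7% of all features. In 4 of 9, Tbr1, Neurod1, Slc17a7 and Emx1, the fitted KO mean was at least 2-fold lower, against 0.862% of all features, and 0 of 9 had an unadjusted p under 0.05, against 1.63%. Neurod1 has no bound in that fit, and with it set to no difference the count was 3 of 9 and the median -0.28. All KO arrays read below both remaining WT arrays in 0 of 9 genes, against 5.33% of all features. The adjusted p was 1 for all 9 (limma).

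Emx1, a homeobox factor of dorsal telencephalic progenitors and their neurons, read -7.46, -7.06 and -6.11 on the KO arrays, against -2.24, -4.91 and -6.63 on the WT arrays and -6.01 on the sham array. KO replicate 1, the lowest, was not well above background, and KO replicate 3 lay above WT replicate 3, so the groups overlapped. The difference between KO and WT was -2.29 ± 1.13 log2 (SE, 95% interval -5.10 to 0.53, adjusted p = 0.862, limma), and -1.11 ± 0.66 without WT replicate 1.

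Eomes (also known as Tbr2), the T-box factor of intermediate progenitors that also acts in T and NK cells, read -7.57, -6.55 and -6.88 on the KO arrays, against -6.94, -6.87 and -6.56 on the WT arrays. All WT values lay within the KO range, and KO replicate 1 was not well above background. The difference was -0.21 ± 0.31 log2 (SE, 95% interval -0.99 to 0.57, adjusted p = 0.862, limma), and -0.28 ± 0.34 without WT replicate 1. Its level on the sham array was -4.30, which is above every day 3 array by at least 2.25 log2.

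Neurod1, a basic helix-loop-helix factor that drives neuronal differentiation, read -9.31, -9.91 and -8.07 on the KO arrays, against -4.43, -6.86 and -9.20 on the WT arrays and -5.87 on the sham array. It was well above background on 0 of 3 KO arrays, on 2 of 3 WT arrays (not on replicate 3) and on the sham array. Its KO mean was at least 1.47-fold lower than its WT mean, where the dim side is set at the lowest measurable signal of each array. That bound rests on WT replicate 1, and none remained without it. The fitted difference was -2.27 ± 1.25 log2 (SE, adjusted p = 0.862, limma), and -1.07 ± 0.89 without WT replicate 1.

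Neurod6, a related factor kept on in mature cortical and hippocampal excitatory neurons, read -7.33, -7.12 and -6.34 on the KO arrays, against -1.32, -6.94 and -5.44 on the WT arrays and -5.15 on the sham array. WT replicate 2 lay within the KO range and WT replicate 1 was 14.2-fold above the next highest array, which is the widest such gap among the 9 genes. The difference was -2.36 ± 1.44 log2 (SE, 95% interval -5.94 to 1.21, adjusted p = 0.862, limma), and -0.74 ± 0.55 without WT replicate 1.

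Tbr1, the T-box factor of deep-layer neurons that project to the thalamus, read -2.33, -1.83 and -0.69 on the KO arrays, against 3.01, 0.15 and -0.93 on the WT arrays and -0.15 on the sham array. It had the smallest unadjusted p of the 9 genes (0.0735), and its groups overlapped only through KO replicate 3 and WT replicate 3. The difference was -2.36 ± 1.08 log2 (SE, 95% interval -5.04 to 0.31, adjusted p = 0.862, limma), and -1.23 ± 0.60 without WT replicate 1.

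Fezf2, the zinc finger factor that specifies deep-layer neurons projecting to the brainstem and spinal cord, read -6.37, -6.19 and -5.58 on the KO arrays, against -2.76, -6.81 and -4.81 on the WT arrays and -5.42 on the sham array. Its lowest array was WT replicate 2, below all 3 KO arrays. The difference was -1.25 ± 1.01 log2 (SE, adjusted p = 0.862, limma), and -0.24 ± 0.65 without WT replicate 1.

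Rorb, a nuclear receptor used as a marker of layer 4, read -1.50, -0.56 and 0.34 on the KO arrays, against 0.63, -0.51 and -0.85 on the WT arrays and -0.76 on the sham array. The groups overlapped, and KO replicate 3 was the second highest of the 7 arrays. The difference was -0.33 ± 0.60 log2 (SE, adjusted p = 0.871, limma), and turned to 0.11 ± 0.56 without WT replicate 1.

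Cux2, a homeobox factor of upper-layer neurons, read -4.56, -4.12 and -5.31 on the KO arrays, against -2.31, -4.52 and -4.81 on the WT arrays and -3.67 on the sham array. Here KO replicate 3 was the lowest array, unlike in the other 8 genes. The difference was -0.78 ± 0.74 log2 (SE, adjusted p = 0.862, limma), and 0.00 ± 0.38 without WT replicate 1, with an interval from -1.001 to 1.003.

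Slc17a7, the vesicular glutamate transporter VGLUT1, read -5.70, -5.80 and -3.26 on the KO arrays, against 0.29, -2.21 and -4.64 on the WT arrays and -3.53 on the sham array. KO replicate 3 lay above WT replicate 3 and above the sham array, so the groups overlapped. Its difference was the largest of the 9, -2.74 ± 1.39 log2 or 6.66-fold (SE, 95% interval -6.19 to 0.72, adjusted p = 0.862, limma), and -1.50 ± 1.12 without WT replicate 1.

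**Figure D2:**
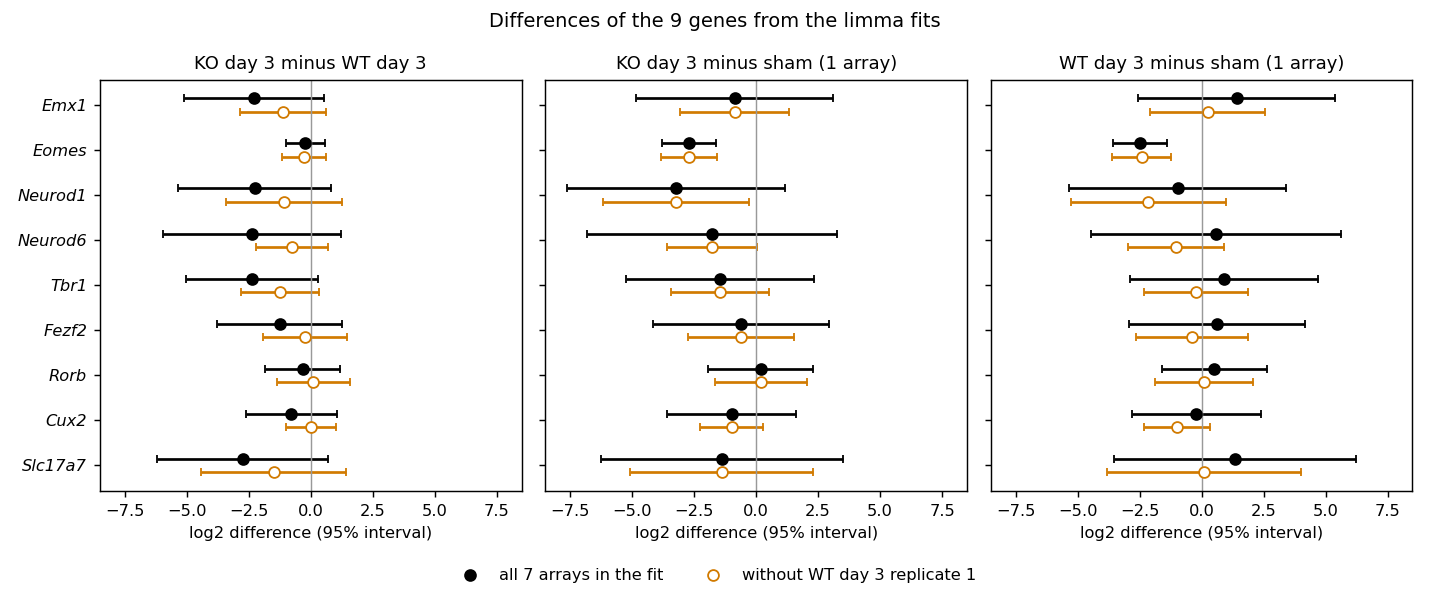
Fitted log2 differences (x axis, with 95% intervals from limma) of the 9 genes (y axis) for KO minus WT, KO minus sham and WT minus sham, with all 7 arrays (filled) and without WT replicate 1 (open). For KO minus WT every interval covers 0, and against sham the Eomes intervals lie below 0 in both genotypes with and without WT replicate 1, as does that of Neurod1 for KO without it.

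Against the single sham array, the same genes were set for each genotype, and both comparisons use that array, which the model assumes to vary like the day 3 arrays. In KO brains 8 of 9 means were below sham (all but Rorb), against 49.6% of all features, with a median difference of -1.39. All 3 KO arrays read below sham in 7 of 9 genes (all but Slc17a7 and Rorb), against 25.8% of all features. On KO replicate 3 the gap was narrow for Emx1 (-6.11 against -6.01 on sham) and Fezf2 (-5.58 against -5.42). The dimmer Tbr1 probe read -6.37 on that array, above sham at -6.54. With normexp background correction the KO minus sham differences of Emx1 and Fezf2 were 0.019 and 0.006. The KO mean was at least 2-fold lower in 5 of 9, against 6.23%. In WT brains 3 of 9 means were below sham (Neurod1, Cux2 and Eomes), against 45.9%, with a median difference of 0.59 (-0.39 without WT replicate 1), and 1 of 9 (Eomes) was at least 2-fold lower, against 4.50%. All 3 WT arrays read below sham in 1 of 9 (Eomes), against 11.1%. Without WT replicate 1 the means of 6 of 9 were below sham, against 49.3% of all features, and 3 of 9 were at least 2-fold lower (Neurod6, Neurod1 and Eomes), against 5.84%. The sham array read above each of the 5 day 3 arrays other than WT replicate 1 in 4 of 9 genes (Neurod6, Neurod1, Cux2 and Eomes), against 21.8% of all features. No gene of the 9 passed in either comparison (adjusted p = 1, limma), where 0.0129% of all features passed in each.

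Eomes was below the sham array in both genotypes. It was lower than sham by 2.70 ± 0.44 log2 in KO brains (SE, unadjusted p = 0.00107, adjusted p = 1, limma) and by 2.49 ± 0.44 log2 in WT brains (unadjusted p = 0.0016, adjusted p = 1, limma). It was the only one of the 9 genes with an unadjusted p under 0.05, against 1.32% of all features in KO brains and 1.13% in WT brains. Without WT replicate 1 the WT difference was -2.42 log2 (unadjusted p = 0.00369, adjusted p = 0.768, limma). Neurod1 was at least 2.87-fold lower in KO brains than on the sham array, with a fitted difference of -3.23 ± 1.77 log2 (SE; unadjusted p = 0.12, and 0.0374 with adjusted p = 0.712 without WT replicate 1, limma), and differed by -0.96 ± 1.77 log2 in WT brains. Tbr1 differed from sham by -1.47 ± 1.53 log2 in KO brains and by 0.89 ± 1.53 log2 in WT brains, and the second of these was -0.24 without WT replicate 1. The Eomes differences from sham were smaller with normexp background correction, at -0.86 log2 in KO brains and -0.91 log2 in WT brains.

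The Eomes level on the sham array was set beside lists of T and NK cell, neurogenic progenitor, olfactory bulb and cerebellar genes. Of 12 T and NK cell markers, 8 were measured (Cd3d, Cd3g, Cd8a and Ncr1 did not pass the filter), and their summed level was 0.969 to 1.14 times the 75th percentile on KO arrays, 0.925 to 1.101 on WT arrays and 0.984 on the sham array. Cd8b1, Gzma and Gzmb of that list were highest on the sham array, and Cd3e, Prf1, Nkg7, Tbx21 and Klrb1c were not. Gzmb and Klrb1c were each well above background on only 3 arrays and Cd8b1 on 5. Cd3e read -1.99 to -0.96 on KO arrays and -2.25 to -1.28 on WT arrays, against -2.33 on the sham array. Cd8b1 read -7.94 to -7.08 on KO arrays and -7.41 to -6.61 on WT arrays, against -6.25 on the sham array. Over 6 measured neurogenic progenitor genes the summed level was 2.504 to 3.08 on KO arrays, 2.31 to 2.78 on WT arrays and 3.03 on the sham array. Of 6 olfactory bulb genes none was highest on the sham array. Of 6 measured cerebellar genes, 2 (Pcp2 and Car8) were highest on the sham array, and Cbln1, Zic1, Zic2 and Pax6 were not. The summed level of the 6 was 6.87 to 12.5 on KO arrays, 3.62 to 13.3 on WT arrays and 8.17 on the sham array. Pcp2, a Purkinje cell gene, read -4.17 to -2.04 on KO arrays and -4.20 to -3.32 on WT arrays, against -0.89 on the sham array. Over all features 6.67% were highest on the sham array. The part of these cells in the Eomes level was not tested.

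A second probe was read for 4 of the genes. For Tbr1 the dimmer probe read -7.66, -7.24 and -6.37 on the KO arrays, against -3.44, -5.97 and -6.90 on the WT arrays and -6.54 on the sham array, with a difference of -1.66 ± 0.94 log2 between KO and WT (SE, adjusted p = 0.862 over 30005 probes, limma) and of -0.66 ± 0.49 without WT replicate 1. It kept the highest array (WT replicate 1) and the lowest (KO replicate 1). For Rorb the dimmer probe read -2.20, -1.29 and -0.09 on the KO arrays, against -0.55, -1.25 and -1.48 on the WT arrays, with KO replicate 3 highest of all, and its difference was -0.10 ± 0.59 log2 (SE), and 0.18 ± 0.64 without WT replicate 1. The dimmer Neurod1 probe was well above background on WT replicate 1 and the sham array alone, the same arrays that were highest with its brighter probe. The dimmer Eomes probe was well above background on 0 arrays, so the Eomes pattern rests on a single probe.

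**Figure D3:**
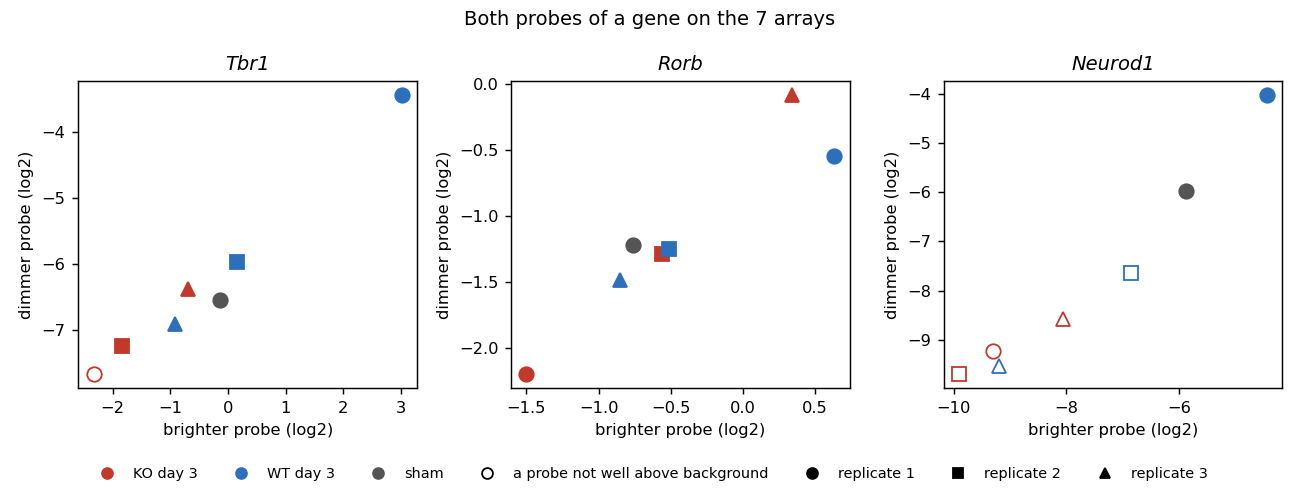
Log2 signal of the dimmer probe (y axis) against that of the brighter probe (x axis) of Tbr1, Rorb and Neurod1 on the 7 arrays, coloured by group, with open points where either probe was not well above background. For Tbr1 and Rorb the 7 arrays keep nearly the same order with both probes, with KO replicate 1 lowest. WT replicate 1 is highest for Tbr1 and Neurod1. For Neurod1 only WT replicate 1 and the sham array are filled, and the order of the others was not measured with both probes.

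Within the KO group most of the 9 genes were highest on replicate 3, where most pan-neuronal, striatal and interneuron genes were lowest. KO replicate 3 read above both other KO arrays in 7 of 9 genes (all but Cux2 and Eomes), against 29.8% of all features, by 2.49 log2 over the mean of both for Slc17a7, 1.39 for Tbr1 and 1.37 for Rorb. KO replicates 1 and 2 read below each of the other 5 arrays in 5 of 9 (Tbr1, Neurod6, Neurod1, Slc17a7 and Emx1), against 2.36% of all features. Neurod1 is in both counts, but it was not well above background on any KO array or on WT replicate 3. Its order among those arrays was therefore not measured. Of 11 pan-neuronal genes, among them the neurofilaments Nefl and Nefm and the synaptic calcium sensor Syt1, 0 were highest on KO replicate 3 and 10 were lowest there, against 31.1% of all features. Of 11 striatal projection neuron genes, 11 were highest on KO replicate 2, as were 10 of 12 inhibitory interneuron genes, against 33.7% of all features. The 20 wider cortical excitatory genes did not follow the 9: 6 were highest and 7 lowest on KO replicate 3, and 10 were highest on KO replicate 2. Tac1, a striatal neuropeptide gene, read -0.12, 3.07 and -0.995 on KO replicates 1, 2 and 3, in the reverse order of Slc17a7 (-5.70, -5.80 and -3.26) for replicates 2 and 3. No test was run on this order, which was described after the levels were seen.

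**Figure D4:**
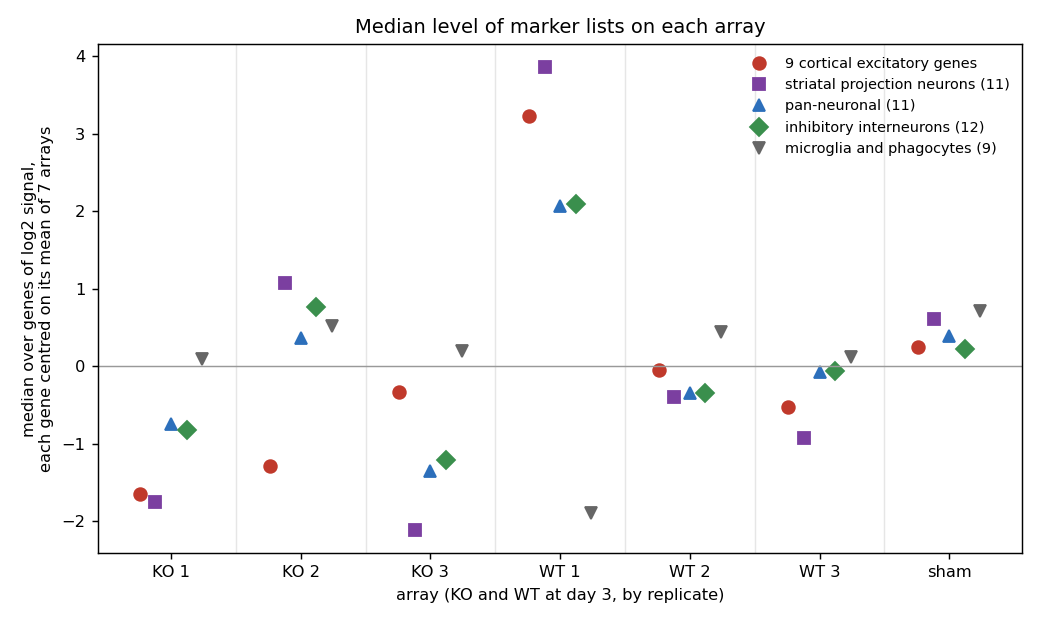
Median over the genes of each list (y axis, log2 signal with each gene centred on its own mean of the 7 arrays) on each array (x axis), for the 9 cortical excitatory genes and 4 comparison lists. On KO replicate 2 the 9 genes sit at -1.29 and striatal genes at 1.07. On KO replicate 3 the 9 genes sit at -0.34, above pan-neuronal genes at -1.36 and striatal genes at -2.11. The 20 wider cortical excitatory genes, not plotted, have medians of -0.07 on KO replicate 2 and -0.355 on KO replicate 3.

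Summed over each list, the 9 genes read 0.645, 1.08 and 2.07 times the 75th percentile on the KO arrays, against 11.9, 2.14 and 1.24 on the WT arrays and 1.80 on the sham array. Striatal projection neuron genes read 5.76, 63.4 and 3.98 on the KO arrays, against 265, 14.3 and 14.4 on the WT arrays and 36.7 on the sham array. Pan-neuronal genes read 28.2, 64.1 and 19.1 on the KO arrays, against 202, 41.5 and 44.1 on the WT arrays and 62.8 on the sham array. The 20 wider cortical excitatory genes read 26.6, 46.0 and 27.6 on the KO arrays, against 95.1, 28.9 and 29.0 on the WT arrays and 36.5 on the sham array. All 4 sums were highest on WT replicate 1, and among KO arrays the 9 genes were highest on replicate 3 and the other 3 lists on replicate 2. A sum is weighted to its brightest probes, which among the 9 genes are those of Rorb and Tbr1.

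The WT arrays other than replicate 1 also disagreed by gene. WT replicate 2 read above WT replicate 3 by 2.43 log2 for Slc17a7, 2.34 for Neurod1, 1.72 for Emx1 and 1.08 for Tbr1. For Fezf2 and Neurod6 the order was the other way, with replicate 2 minus replicate 3 at -1.99 and -1.51.

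Most other genes of cortical excitatory neurons also had lower means in KO, fewer of them without WT replicate 1 and the sham array. Of 20 wider cortical excitatory genes, 17 were lower in KO, with a median of -0.71, and 11 of 20 were lower without WT replicate 1 and the sham array, with a median of -0.04. Neurod2, the closest relative of Neurod6 and also active in cortical neurons, read -3.40, -3.56 and -1.62 on the KO arrays, against 1.16, -0.89 and -2.46 on the WT arrays and -1.80 on the sham array. Its difference was -2.13 ± 1.03 log2 (SE, adjusted p = 0.862, limma), and -1.19 without WT replicate 1 and the sham array. Nr4a2, a nuclear receptor of deep cortical and claustral neurons, differed by -1.48 ± 0.92 log2 and Bhlhe22, a basic helix-loop-helix factor, by -1.14 ± 0.72 (both SE), and without WT replicate 1 and the sham array by -0.44 and -0.33. In this list 0 of 20 genes passed in either direction in any of the 3 comparisons, and between KO and WT the smallest unadjusted p was 0.0877 (Neurod2, limma).

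Among 9 measured relatives of the 9 genes, 7 were lower in KO, with a median of -0.38. Without WT replicate 1 and the sham array the median was -0.19. Slc17a6 and Slc17a8, the other vesicular glutamate transporters (VGLUT2, mainly of the thalamus and brainstem, and VGLUT3), differed by -1.50 ± 0.93 and -0.95 ± 0.69 log2, Emx2 by -0.38 ± 0.65, Fezf1 by -0.69 ± 0.36, Rora by -0.37 ± 0.26, Cux1 by 0.05 ± 0.19 and Tbx21 by 0.45 ± 0.26 (all SE, KO minus WT). Without both arrays these were -0.55 for Slc17a6, -0.21 for Slc17a8, 0.06 for Emx2, -0.47 for Fezf1, -0.19 for Rora, -0.005 for Cux1 and 0.24 for Tbx21. Neurod4 did not pass the filter. None of the 9 passed in any comparison (limma). Of 9 genes of glutamate supply and clearance, 9 were lower in KO, with a median of -0.77 and with Got1, an aspartate aminotransferase that interconverts glutamate and aspartate, at -0.86 ± 0.57 (SE). Without WT replicate 1 and the sham array their median was -0.19, and Got1 differed by -0.30.

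Other neuronal classes read lower in KO as well. All 11 pan-neuronal genes had a lower mean in KO (median -1.14, with Nefm at -1.80 ± 0.84 and Nefl at -1.52 ± 0.82), as did 11 of 11 striatal genes (median -1.58, with Tac1 at -2.13 ± 1.42) and 12 of 12 interneuron genes (median -1.05, with Vip at -1.79 ± 1.23 and Dlx1 at -0.98 ± 0.50; all SE). Without WT replicate 1 and the sham array these medians were -0.30, -0.14 and -0.39, beside -0.74 for the 9 cortical excitatory genes and 0.00 for all features. In that fit Nefm, Nefl, Tac1, Vip and Dlx1 differed by -1.025, -0.74, -1.01, -0.49 and -0.58. None of these neuronal genes passed (limma). The 9 microglia and phagocyte genes had a median difference of 0.73, and of 0.03 without WT replicate 1 and the sham array. The medians of the remaining lists were -0.13 for the thalamus and hypothalamus, -0.23 for the dentate gyrus and hippocampus, -0.13 for the olfactory bulb, 0.09 for the cerebellum, -0.17 for neurogenic progenitors, 0.14 for T and NK cells, -0.12 for astrocytes, 0.16 for oligodendrocytes and 0.84 for endothelial cells. Without WT replicate 1 and the sham array they were, in that order of lists, -0.15, -0.10, -0.04, -0.24, -0.08, -0.05, -0.08, 0.31 and -0.12, so that the cerebellar, the T and NK cell and the endothelial medians turned sign. Whether the 9 cortical genes differ from those lists, and the part of the microglial level in their difference, was not tested.

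The features whose levels ran most like the median of the 9 genes over the 7 arrays were Rtn4r, Adcyap1, Bdnf, Nwd2 and ENSMUST00000195192. Likeness was the mean absolute difference over the arrays after each was centred on its own mean, among 20889 features well above background on all 7 arrays, whose median was 1.06 log2. Rtn4r, at 0.21 log2, read -5.00, -4.42 and -4.15 on the KO arrays, against -0.52, -3.49 and -4.26 on the WT arrays and -3.19 on the sham array. Bdnf, at 0.29 log2, read -5.35, -4.85 and -4.31 on the KO arrays, against -1.59, -4.05 and -4.33 on the WT arrays. The 9 genes themselves lay at 0.18 log2 (Tbr1) to 1.18 (Eomes) from their own median. Over the 6 arrays without WT replicate 1, the closest were Adcyap1, Il2rb, Ranbp3l, Mir9-3hg and Cd209a, so that of the first 5 genes Adcyap1 alone was named again, at 0.16 log2 against a median of 0.56 over those features.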

How the data were processed

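RNA of 7 brain samples (100 ng each, per the labels' protocols) was labelled with Cy3 and hybridised to Agilent arrays of 60-base probes. Spot intensity was deposited as output of Agilent Feature Extraction 11.5.1.1, background-subtracted and detrended within each array, per the file headers. The deposited value table holds a linear ratio, each processed signal over its array's 75th percentile (within 0.0428%), and was an alternative only. From the deposited intensity, log2 signal minus the log2 of the array's 75th percentile was computed. Control and outlier spots were left out, spots of a probe averaged, probes well above background on at least 3 arrays kept, and the brightest probe taken per gene. Of 39429 probes, 28330 matched a RefSeq symbol (GRCm38.p6, used for names).

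limma 3.58.1 in R 4.3.3 (lmFit, eBayes) fitted the 3 groups, two-sided, with Benjamini-Hochberg adjustment over 23317 features, a threshold of 0.05, 4 residual and 1.68 prior degrees of freedom. Precision is limited by how many arrays there are. The members and the 16 marker lists were chosen with earlier results of these data known. Named were the 9 genes with every probe, up to 4 genes per list by smallest unadjusted p between KO and WT, all relatives of the 9, the 5 features most like their median, and genes highest on the sham array, chosen after their values were seen. Some genes that this rule names are not reported here. The limma code was tested on simulated data. Alternatives covered the filter, normexp background correction (offset 50), quantile normalization, the value table, mean of probes, groups fitted, array weights, a replicate block and each replicate left out. The deviations of same-numbered KO and WT arrays had correlations of -0.38, -0.56 and 0.35. With 3 arrays per group, the outlying WT replicate 1 among them, these cannot show whether the numbers pair the arrays. Plots used Python 3.11.15 and matplotlib 3.10.9.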

Additional observations from a re-analysis of the deposited data

How the results depend on the processing

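No gene of the 9 passed under any alternative in any comparison. Of the single-gene values, 362 kept their direction under the alternatives and 22 did not. Many of the 362 could not change, so these counts do not measure robustness. The value table, fitting only the groups compared and the replicate block leave each difference as it was, apart from rounding. So does leaving out a replicate of the day 3 group that is not in a sham comparison. KO minus WT without WT replicate 1 is counted both with and without the sham array, with the same values. The cause of the 22 reversals was not tested. The median KO minus WT difference of the 9 genes was -2.27 with all arrays, -0.67 with normexp, -0.57 with array weights (WT replicate 1 had weight 0.0715), -0.74 without WT replicate 1 and the sham array, and -2.80 to -0.74 with 1 replicate left out. The median WT minus sham difference, 0.59, was -0.56 with array weights.

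Reversed KO minus WT differences were Eomes at 0.05 with normexp, Cux2 at 0.001 and Rorb at 0.108 without WT replicate 1 (with or without the sham array), Rorb at 0.09 with array weights, and, without KO replicate 1, Rorb at 0.134 and Eomes at 0.074. With 1 replicate left out, Cux2 ran from -1.25 to 0.001, Rorb from -0.79 to 0.134 and Eomes from -0.43 to 0.074. Reversed WT minus sham differences were Neurod1 at 0.174 and Cux2 at 0.007 with normexp, and Tbr1 at -0.092, Neurod6 at -1.14 and Fezf2 at -0.56 with array weights. With 1 replicate left out these ran from -0.24 to 1.73 for Tbr1, -1.04 to 1.77 for Neurod6, -2.16 to 0.221 for Neurod1, -0.39 to 1.64 for Fezf2 and -0.99 to 0.257 for Cux2. Reversed KO minus sham differences were Fezf2 at 0.006 and Emx1 at 0.019 with normexp, and Rorb, which ran from -0.27 to 0.65.

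Counts of all features past the threshold were 0 for KO minus WT (2 with array weights), and 3 for both WT minus sham and KO minus sham. The last 2 were 0 among features well above background on all 7 arrays, with normexp and with only the groups compared, and 1 with quantile normalization. With array weights they were 7 for WT and 8 for KO, and with 1 replicate left out 0 to 6 for WT and 0 to 8 for KO. With the replicate number as a block, 0 features passed for KO minus WT, 149 had an unadjusted p under 0.05 (197 without the block) and the median of the 9 genes was -2.27, so the block changed no call. Signal over background limits Neurod1 in KO brains and Emx1, Neurod6 and Eomes on KO replicate 1.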
